A study of Mus musculus with 8 samples.

Results

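The genes described here are 34 genes of fatty acid oxidation and of the PPAR-alpha programme in liver, taken by symbol from a gene table of 19348 genes. They cover the receptor itself, the carnitine shuttle, mitochondrial and peroxisomal beta-oxidation, electron transfer, ketone body and omega-hydroxylation enzymes, acyl-CoA thioesterases, secreted or regulatory PPAR-alpha targets and lipid droplet proteins. Messenger RNA of whole liver was sequenced at an age of 5 weeks, in 5 mouse libraries labelled Stab1 knock-out (KO) and 3 labelled wild-type (WT). The product of Stab1, stabilin-1, takes up modified proteins in endothelial cells of the liver sinusoids and in macrophages, and the comparison asks how liver gene expression differs without it. No treatment is labelled. The labels do not give the sex, the strain, the design of the deleted allele, or whether each library is a separate animal, so the p-values rest on a spread between libraries that may be technical.

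Fatty acids enter mitochondria as carnitine esters and are shortened there in repeated cycles of dehydrogenation, hydration, dehydrogenation and thiolysis. Their electrons pass through the electron transfer flavoprotein to the respiratory chain, and the acetyl-CoA made in liver feeds the tricarboxylic acid cycle or ketone body synthesis. Peroxisomes shorten very long and branched chains, and cytochromes of the Cyp4a family hydroxylate the terminal carbon. PPAR-alpha, the nuclear receptor encoded by Ppara, binds fatty acids and, paired with a retinoid X receptor, activates many of these genes in the fasted liver.

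A PPAR response element is built from a repeat of the hexamer AGGTCA with 1 base between the copies. RefSeq promoter windows (GRCm38.p6, 250 bases before to 50 after a gene's start) were matched for 26 of the 34 members, in 27 windows. AGGTCA was found on either strand in 4 of the 27 windows (14.8%), beside 5340 of 32851 windows of all genes (16.3%). The whole repeat, AGGTCANAGGTCA searched on both strands and overlapping the hexamer, was found in 0 of the 27 and in 13 of the 32851 (0.0396%). The 4 member windows that hold the hexamer are shown because they belong to a dehydrogenase pair, the carnitine shuttle enzyme and a lipid droplet gene whose levels are given below. Each is written 5′ to 3′ on the gene's strand, with the hexamer or its reverse complement in capitals. They are Acadm at chr3:153944594-153944893 on the minus strand, Acadvl at chr11:70015379-70015678 on the minus strand, Cpt1a at chr19:3323051-3323350 on the plus strand and Plin2 at chr4:86670010-86670309 on the minus strand.
Acadm: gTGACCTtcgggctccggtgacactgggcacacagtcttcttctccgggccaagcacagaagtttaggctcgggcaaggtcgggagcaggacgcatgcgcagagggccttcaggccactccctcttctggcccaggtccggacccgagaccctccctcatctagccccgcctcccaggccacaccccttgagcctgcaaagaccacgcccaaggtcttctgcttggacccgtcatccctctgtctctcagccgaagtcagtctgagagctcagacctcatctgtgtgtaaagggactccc
Acadvl: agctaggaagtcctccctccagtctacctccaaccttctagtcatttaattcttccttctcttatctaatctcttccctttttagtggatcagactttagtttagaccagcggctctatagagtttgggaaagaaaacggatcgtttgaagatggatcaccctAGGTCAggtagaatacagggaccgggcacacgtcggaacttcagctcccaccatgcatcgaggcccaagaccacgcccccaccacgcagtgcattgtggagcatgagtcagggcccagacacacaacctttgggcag
Cpt1a: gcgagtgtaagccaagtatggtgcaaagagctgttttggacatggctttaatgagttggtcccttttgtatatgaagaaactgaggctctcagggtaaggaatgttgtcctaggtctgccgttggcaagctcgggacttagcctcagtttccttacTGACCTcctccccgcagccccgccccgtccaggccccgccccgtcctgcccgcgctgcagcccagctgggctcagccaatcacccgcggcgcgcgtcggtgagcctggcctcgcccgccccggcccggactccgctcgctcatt
Plin2: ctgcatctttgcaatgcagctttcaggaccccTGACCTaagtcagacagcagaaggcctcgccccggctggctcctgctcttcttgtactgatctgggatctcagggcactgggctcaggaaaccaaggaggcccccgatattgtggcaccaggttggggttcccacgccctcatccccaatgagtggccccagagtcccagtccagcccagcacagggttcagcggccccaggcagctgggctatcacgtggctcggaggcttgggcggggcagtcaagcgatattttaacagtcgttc
The first capital lies 249 bases before the start in Acadm, 87 in Acadvl, 94 in Cpt1a and 218 in Plin2. A match is a string of letters and no measured site, and a window without one says only that these letters are not in it.

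Library totals were 4.85 M counted reads (M for mega) in KO library 1, 8.94 to 10.5 M in the other KO libraries and 10.1 to 10.8 M in the WT libraries. Levels below are CPM, reads scaled to TMM-adjusted library sizes, and a floor of 3 reads equals 0.587 CPM in KO library 1 and 0.276 to 0.346 CPM in the others (counting error only). Stab1, the targeted gene, averaged 1.22 ± 0.378 CPM in KO and 51.0 ± 4.52 CPM in WT liver (SD, n = 5 and 3; exact two-sided permutation p = 0.0179, the smallest the 56 divisions allow). KO library 1 stood apart: it held 3 reads of the X-inactivation transcript Xist, against 4445 to 8222 in the other libraries, while the Y chromosome gene Ddx3y had 320 reads there and 0 to 4 elsewhere. By these reads it was the only male library, so results are also given without it. The summed level of 15 hepatocyte markers was 131888 to 194664 CPM in KO and 204738 to 214471 CPM in WT libraries, and Alb held 4.91% to 10.2% of reads in KO and 11.6% to 12.9% in WT libraries. The 11 muscle markers, of a tissue that also oxidizes fatty acids, summed to 0 to 3.12 CPM in KO and 0.276 to 0.401 CPM in WT libraries, with Myh2, Myh4 and Ckmt2 at 0 in every library. The 11 adipocyte and mesothelial markers summed to 691 to 874 CPM in KO and 590 to 728 CPM in WT libraries, with Plin1 and Ucp1 at 0 in every library. Of these 11 markers, 5 had enough reads to be tested. The list includes Adipor2 and Krt19, and the sum was not divided by gene, so it is no measure of fat or mesothelial content.

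For none of the 34 genes did KO and WT liver differ beyond the spread between libraries. All passed the filter on low counts, and 0 had an adjusted p below 0.05 in edgeR's quasi-likelihood test, where 28 of 12338 tested genes (0.227%) did. At an unadjusted p below 0.05 only Crat passed, 1 of 34, against 1682 of all tested genes (13.6%), and DESeq2 called 0 of the 32 members it gave an adjusted p, against 130 of 14712 genes (0.884%). DESeq2 without KO library 1 again called 0 of 32 members, against 1057 of 12280 genes (8.61%). The log2 fold change of KO over WT was positive for 17 of 34 members and for 6056 of 12338 tested genes, and the median was -0.01 for the members and -0.01 for all tested genes. For 0 of 34 members did all KO libraries lie on 1 side of all WT libraries, which held for 821 of all tested genes (6.65%). In whole tissue, fewer cells of a type and less RNA per cell cannot be told apart. Without KO library 1 again 0 members were called, with 114 of 12283 genes called (0.928%), 18 members were positive and their median was 0.01. The groups then still overlapped for every member, while 2247 of all tested genes (18.2%) had no overlap.

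Between libraries of the same genotype the members mostly moved in the same direction. They varied more than tested genes at large in WT libraries but not in KO libraries. WT library 3 had the highest of the 3 WT values for 33 of 34 members, against 41.5% of all tested genes, and Pdk4 was the exception. It had the highest value of all 8 libraries for 22 members, against 12.2% of all tested genes. Among the KO libraries, library 5 was highest for 26 members, against 17.1% of all tested genes. Taken as log2 CPM minus each gene's mean over the 8 libraries, the members' median was -0.31, -0.02, 0.04, -0.04 and 0.30 in KO libraries 1 to 5, against -0.23, -0.31 and 0.59 in WT libraries 1 to 3. WT libraries 1 and 2 thus lay close together, with a median absolute difference of 0.08 between them over the members and 0.17 over all tested genes, while the median of WT library 1 minus WT library 3 was -0.82. The median within-group SD of log2 CPM was 0.28 in KO and 0.51 in WT libraries for the members, and 0.29 in KO and 0.23 in WT libraries for all tested genes.

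**Figure D1:**
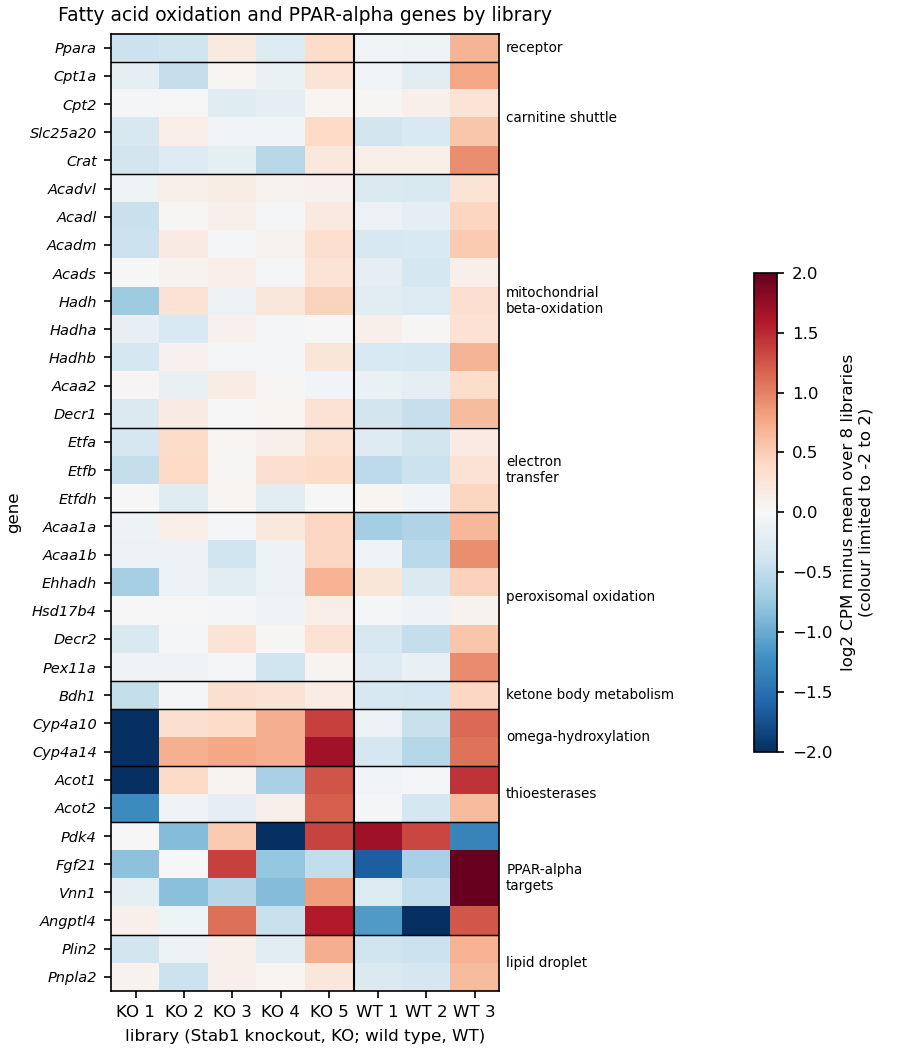
Log2 CPM of each of the 34 genes minus its mean over the 8 libraries (colour, limited to -2 to 2), with genes in rows by role and KO libraries 1 to 5 left of WT libraries 1 to 3. WT library 3 is red in nearly every row, KO library 5 is red in most, and KO library 1 is dark blue for the Cyp4a and Acot genes.

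The members' KO and WT difference therefore depended on which libraries were kept, and leaving out WT library 3 moved it most. With all libraries 17 members were positive (median -0.01). Without WT library 1, WT library 2 or KO library 5, 8, 6 and 9 were positive (medians -0.15, -0.18 and -0.15). Without WT library 3, 27 of 34 members had a positive log2 fold change, with a median of 0.33 against 0.01 for all tested genes. In that fit 0 members were called, with 93 of 12487 genes called (0.745%). WT library 3 was the highest WT library for 33 of the 34 members, so leaving it out raises their KO over WT by construction. The 5 KO values then all lay above the 2 remaining WT values for 7 members (Acadvl, Decr1, Plin2, Acads, Decr2, Acaa1a and Angptl4), against 1690 of 12338 genes (13.7%). Without both KO library 1 and WT library 3, a setting added after seeing the data, 11 members were called higher and 0 lower, where 1325 of 12482 genes (10.6%) were called higher and 2482 (19.9%) in either direction. Those 11 were Etfa, Etfb, Bdh1, Acadvl, Acadm, Decr1, Decr2, Acaa1a, Angptl4, Cyp4a10 and Cyp4a14, with log2 fold changes of 0.41 in Acadvl to 2.42 in Angptl4. WT library 3 was the highest WT library for these genes, so leaving it out removes their highest WT value by construction, and only 2 WT libraries remain.

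**Figure D2:**
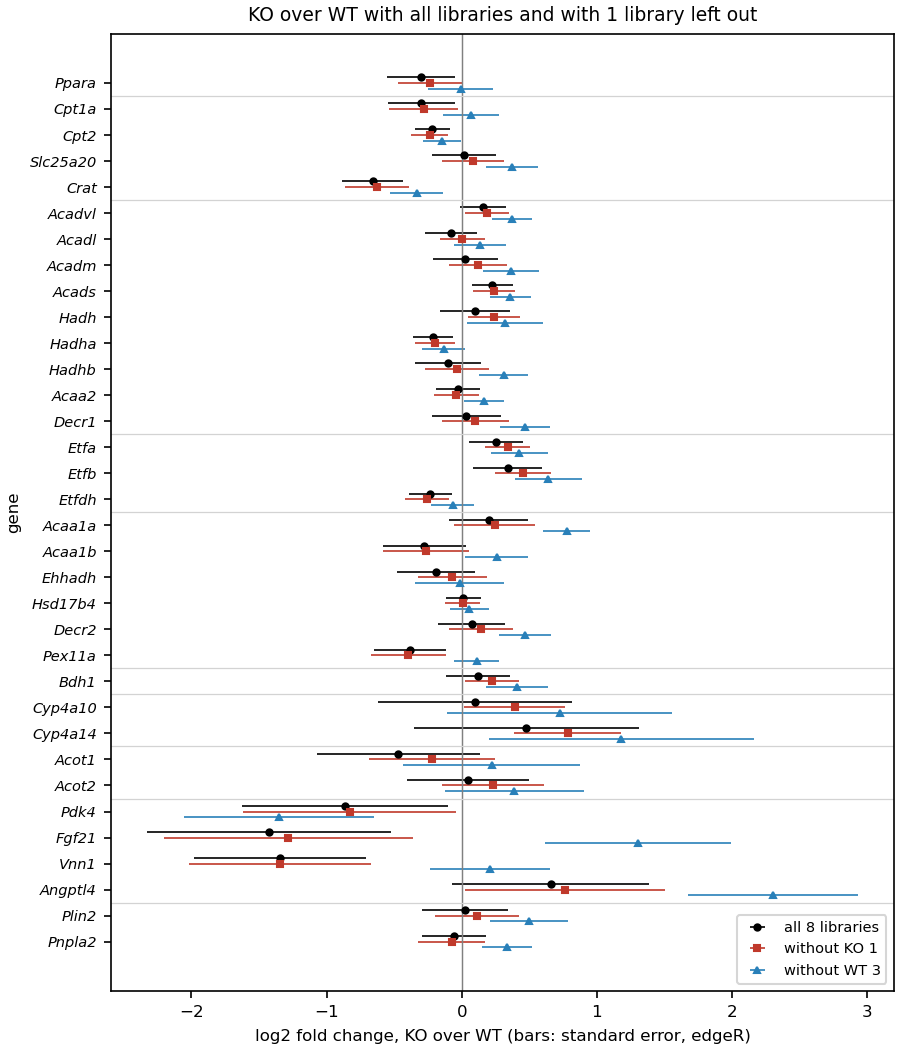
Log2 fold change of KO over WT for each of the 34 genes, in rows by role, with all 8 libraries (black circles), without KO library 1 (red squares) and without WT library 3 (blue triangles), with bars of 1 standard error. The median moves to 0.33 without WT library 3, against -0.01 with all libraries, and 10 of the 34 genes go to the other side of 0, Fgf21 among them.

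Ppara (gene ID 19013) had 171, 174, 263, 191 and 296 CPM in KO libraries 1 to 5, against 222, 218 and 369.7 CPM in WT libraries 1 to 3. WT library 3 was highest and KO libraries 1 and 2 lowest, and the groups overlapped. The means were 219 ± 56.9 CPM in KO and 269.95 ± 86.4 CPM in WT liver (SD, n = 5 and 3; log2 fold change -0.30, SE 0.25, edgeR adjusted p = 0.571). Without WT library 3 the log2 fold change was -0.01.

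The carnitine shuttle carries long-chain fatty acids into mitochondria. Crat (12908), the carnitine acetyltransferase, had 31.7, 34.3, 35.6, 27.9 and 47.2 CPM in KO libraries 1 to 5, against 44.5, 44.7 and 78.2 CPM in WT libraries 1 to 3. Of the KO libraries only library 5 reached above the lowest WT value. The log2 fold change was -0.66 (SE 0.23, unadjusted p = 0.0153, edgeR adjusted p = 0.332), and it was -0.63 without KO library 1 and -0.33 without WT library 3. Cpt2 (12896), the inner-membrane palmitoyltransferase, had 133, 135, 114, 119.8 and 138 CPM in KO, against 137, 146 and 163 CPM in WT libraries. KO library 5 alone lay above a WT library, by a small margin, and the log2 fold change was -0.22 (SE 0.13, edgeR adjusted p = 0.455). Cpt1a (12894), the rate-limiting enzyme of the shuttle, is given here after its values were seen. It had 253, 204, 293, 259.9 and 346 CPM in KO, against 274, 243 and 486 CPM in WT libraries, so that its 3 WT values enclosed 4 of the 5 KO values. Its log2 fold change was -0.30 with all libraries and 0.07 without WT library 3. The carrier gene Slc25a20 averaged 99.6 ± 18.5 CPM in KO and 98.6 ± 37.7 CPM in WT liver (SD, n = 5 and 3), with a log2 fold change of 0.02 (SE 0.24).

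The mitochondrial beta-oxidation enzymes were close to equal in the group means. Of 9 genes, 5 had a positive log2 fold change, and the median was 0.03. Acads (11409), the short-chain acyl-CoA dehydrogenase, had 182, 191, 199.6, 177 and 219 CPM in KO libraries 1 to 5, against 159.7, 142 and 195 CPM in WT libraries 1 to 3. WT library 3 lay within the KO values and the other WT libraries below them, and the log2 fold change was 0.23 (SE 0.15, edgeR adjusted p = 0.489). Hadha (97212), the alpha subunit of the trifunctional protein, had 293, 267, 349, 319 and 331 CPM in KO, against 350.3, 333 and 400.4 CPM in WT libraries. KO library 3 was the only KO value above a WT value, and the log2 fold change was -0.21 (SE 0.15, edgeR adjusted p = 0.499).

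The other 7 mitochondrial enzymes had log2 fold changes of -0.10 in Hadhb, which encodes the beta subunit of the same protein, to 0.15 in Acadvl, the very-long-chain dehydrogenase, which averaged 561 ± 35.0 CPM in KO and 504 ± 121 CPM in WT liver (SD, n = 5 and 3). The medium-chain dehydrogenase gene Acadm (11364), chosen after its values were seen, shows the pattern of most members. It had 244, 370.4, 326, 345 and 415 CPM in KO libraries 1 to 5, against 262, 266 and 474 CPM in WT libraries 1 to 3. KO library 1 and WT libraries 1 and 2 were low, KO library 5 and WT library 3 were high, and the means were 339.9 ± 63.4 CPM in KO and 334 ± 121 CPM in WT liver (SD, n = 5 and 3; log2 fold change 0.03). Acaa2, the last thiolase of the cycle, was the most abundant member per length of transcript, at a mean of 583 RPKM in KO and 589 RPKM in WT liver. Hadhb shared 62.4% of its 50-base stretches with transcripts of other annotated genes, so its count is less certain than the others.

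The electron transfer flavoprotein takes electrons from the acyl-CoA dehydrogenases, and Etfdh passes them on to ubiquinone. Etfb (110826) had 260.4, 477, 367, 455 and 467 CPM in KO libraries 1 to 5, against 252, 268 and 442 CPM in WT libraries 1 to 3. KO library 1 lay between WT libraries 1 and 2, and the log2 fold change was 0.34 (SE 0.25, edgeR adjusted p = 0.532), or 0.64 without WT library 3 (adjusted p = 0.185). Of its 50-base stretches 67.3% occur in another annotated gene, so its count is uncertain. Etfa, the partner subunit, averaged 483 ± 87.6 CPM in KO and 405 ± 81.0 CPM in WT liver (SD, n = 5 and 3; log2 fold change 0.25). Etfdh (66841) had 283, 241, 293, 245 and 285 CPM in KO, against 292, 273 and 384 CPM in WT libraries. Its KO values lay at the level of WT libraries 1 and 2 or below, and the log2 fold change was -0.23 (SE 0.16, edgeR adjusted p = 0.499).

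Among the 6 genes of peroxisomes, 3 had a positive log2 fold change and the median was -0.09. Pex11a (18631), which promotes peroxisome division, had 17.0, 17.1, 17.4, 13.4 and 18.6 CPM in KO libraries 1 to 5, against 14.9, 16.0 and 34.5 CPM in WT libraries 1 to 3. Only WT library 3 stood outside a narrow range, and the log2 fold change was -0.38 (SE 0.26, edgeR adjusted p = 0.498) with all libraries and 0.11 without it. Acaa1b (235674), a peroxisomal thiolase, had 451, 453, 371, 457 and 650.2 CPM in KO, against 459.6, 337 and 936 CPM in WT libraries. KO library 5 and WT library 3 were high in their groups, and the log2 fold change was -0.28 (SE 0.31, edgeR adjusted p = 0.67), turning to 0.26 without WT library 3.

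The second peroxisomal thiolase gene, Acaa1a, reached 0.78 without WT library 3 (edgeR adjusted p = 0.0846), with 0.20 for all libraries on the same log2 scale. Acaa1a and Acaa1b share 34.0% and 35.5% of their 50-base stretches with other genes, mainly with each other, so reads of the pair may be divided differently by another counting method. Ehhadh, the peroxisomal bifunctional enzyme, averaged 354 ± 132 CPM in KO and 403 ± 102 CPM in WT liver. Decr2, a reductase needed for unsaturated chains, averaged 217 ± 35.4 CPM in KO and 207 ± 85.9 CPM in WT liver. The D-bifunctional enzyme gene Hsd17b4 varied least of all members in WT libraries, at 363 ± 21.0 CPM in KO and 359.8 ± 19.1 CPM in WT liver (SD, n = 5 and 3 for each gene; log2 fold change 0.01, SE 0.13).

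Bdh1 (71911), which interconverts the ketone bodies acetoacetate and beta-hydroxybutyrate, had 252, 346, 441, 429.9 and 391 CPM in KO libraries 1 to 5, against 284, 277 and 468 CPM in WT libraries 1 to 3. KO library 1 lay below all WT values and the other KO libraries between WT library 1 and WT library 3. KO over WT was 0.12 on the log2 scale (SE 0.24, edgeR adjusted p = 0.824).

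The omega-hydroxylases and thioesterases set KO library 1 apart. Cyp4a14 (13119) had 30.3, 833, 875, 846 and 1637 CPM in KO libraries 1 to 5, against 401, 344 and 1077 CPM in WT libraries 1 to 3. KO library 1 lay far below every other library, and KO libraries 2 to 5 lay above WT libraries 1 and 2. Its log2 fold change was 0.48 (SE 0.83, edgeR adjusted p = 0.792) with all libraries and 0.78 without KO library 1 (adjusted p = 0.242). Cyp4a10 (13117) had 24.1, 308, 318, 408 and 635 CPM in KO, against 228, 182 and 539.5 CPM in WT libraries, the same order of libraries at the extremes. KO over WT was 0.10 on the log2 scale (SE 0.72, edgeR adjusted p = 0.957), or 0.39 without KO library 1. Cyp4a10 shares 30.5% of its 50-base stretches with other genes, mostly Cyp4a32.

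Acot1 (26897), a cytosolic acyl-CoA thioesterase, had 2.15, 16.3, 12.9, 7.84 and 30.0 CPM in KO libraries 1 to 5, against 12.0, 12.1 and 34.3 CPM in WT libraries 1 to 3. Acot2 (171210), its mitochondrial relative, had 1.96, 4.79, 4.34, 5.40 and 11.8 CPM in KO, against 4.91, 3.87 and 7.91 CPM in WT libraries. KO library 1 was lowest for both, on 11 Acot1 reads and 10 Acot2 reads, and KO library 5 and WT library 3 were highest for both. On the log2 scale KO over WT was -0.47 for Acot1 (SE 0.61, edgeR adjusted p = 0.717) and 0.05 for Acot2 (SE 0.45, edgeR adjusted p = 0.967). The pair shares sequence: 33% of Acot1 and 27.7% of Acot2 stretches of 50 bases occur in other genes, most often in each other. The part of sex in these 4 genes was not tested, since by their reads all other libraries are female.

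The secreted and regulatory PPAR-alpha targets had the widest spread of all members among the WT libraries, with SDs of log2 CPM of 1.6 in Vnn1 to 2.43 in Fgf21, while among the KO libraries Cyp4a14 (2.29) and Cyp4a10 (1.85) spread more. Fgf21 (56636), a fasting hormone, had 2.35, 4.35, 11.4, 2.44 and 3.0 CPM in KO libraries 1 to 5, against 1.23, 2.67 and 35.5 CPM in WT libraries 1 to 3. The KO libraries held 12 to 121 Fgf21 reads, WT libraries 1 and 2 held 13 and 29, and WT library 3, the highest of all, held 354. The log2 fold change was -1.43 (SE 0.90, edgeR adjusted p = 0.469), and 1.31 without WT library 3 (adjusted p = 0.285), so 1 library set its sign. Vnn1 (22361), a pantetheinase, had 27.8, 17.7, 21.3, 17.3 and 57.1 CPM in KO, against 26.3, 22.6 and 166 CPM in WT libraries. Apart from KO library 5 and WT library 3 the libraries lay within 17.3 to 27.8 CPM. Its log2 fold change was -1.34 (SE 0.63, edgeR adjusted p = 0.375), and 0.21 without WT library 3.

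Angptl4 and Pdk4 are the other targets of this kind, shown after their values were seen. Angptl4 (57875), which encodes a secreted inhibitor of lipoprotein lipase, had 53.0, 46.7, 106, 36.4 and 149.6 CPM in KO libraries 1 to 5, against 22.4, 9.40 and 118 CPM in WT libraries 1 to 3. Every KO library exceeded WT libraries 1 and 2, and WT library 3 exceeded all KO libraries but library 5. For Angptl4 the log2 fold change was 0.66 (SE 0.73, edgeR adjusted p = 0.672), and 2.30 without WT library 3 (adjusted p = 0.126). Pdk4 (27273), a kinase that switches off pyruvate dehydrogenase, had 14.9, 8.14, 21.5, 2.12 and 38.7 CPM in KO, against 49.2, 38.1 and 5.81 CPM in WT libraries. Among the WT libraries Pdk4 ran against the rest of the members, with WT library 3 the lowest and below 4 of the 5 KO libraries. Among the KO libraries it was highest in library 5, as most members were. The log2 fold change was -0.86 (SE 0.76, edgeR adjusted p = 0.599), and -1.35 without WT library 3.

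**Figure D3:**
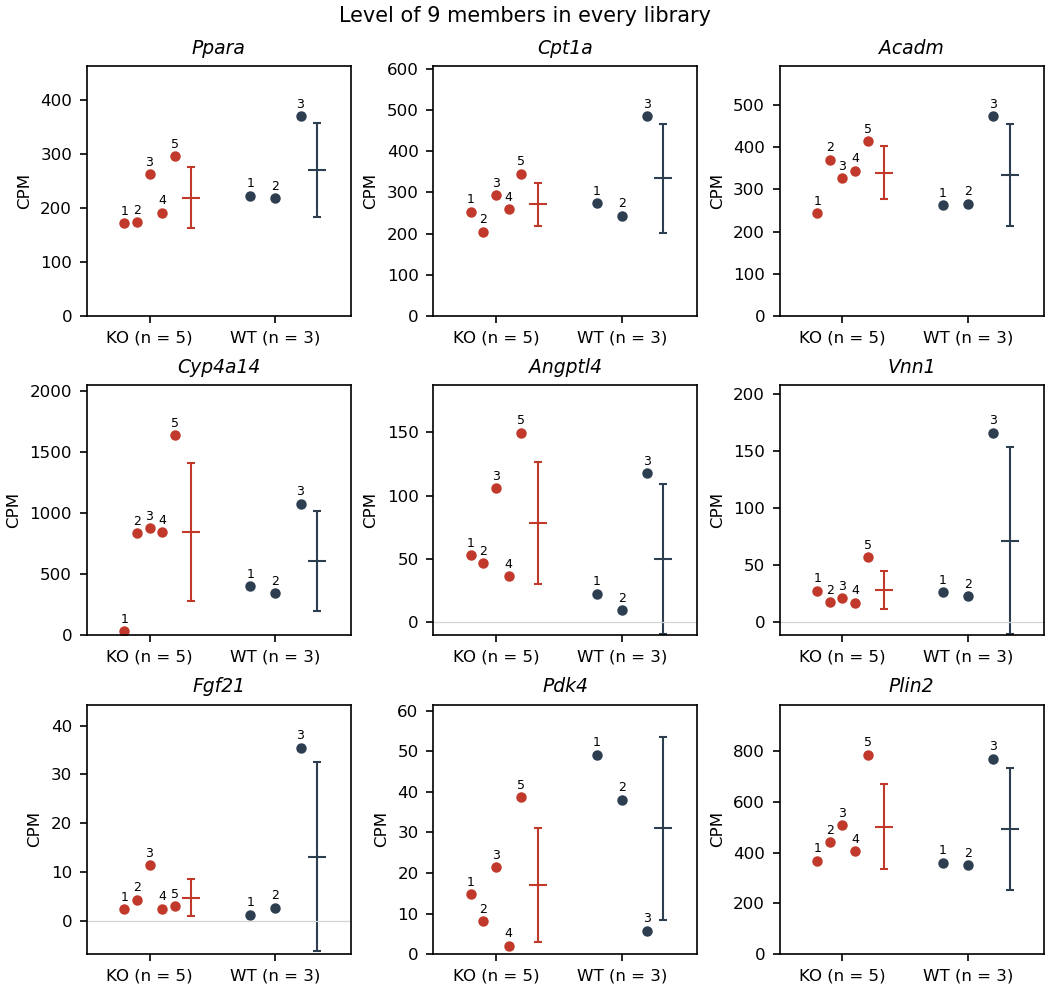
Level in CPM (linear axis) of 9 members in each KO library (left, red, n = 5) and WT library (right, dark blue, n = 3), numbered by replicate, with the group mean and SD as bars. WT library 3 is the highest WT point in every panel but Pdk4, where it is the lowest at 5.81 CPM, and KO library 1 has 30.3 CPM of Cyp4a14 against 833 or more in the other KO libraries.

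Plin2 (11520), the coat protein of liver lipid droplets, had 369, 441, 509, 406 and 788 CPM in KO libraries 1 to 5, against 360.4, 351 and 771 CPM in WT libraries 1 to 3. Pnpla2 (66853), the adipose triglyceride lipase, had 69.4, 48.9, 71.1, 67.5 and 76.9 CPM in KO, against 53.9, 52.1 and 102 CPM in WT libraries. KO library 5 and WT library 3 were highest in their groups for both genes. KO over WT was, on the log2 scale, 0.02 for Plin2 (SE 0.32, edgeR adjusted p = 0.979) and -0.06 for Pnpla2 (SE 0.24, edgeR adjusted p = 0.92), and without WT library 3 it was 0.50 for Plin2 and 0.33 for Pnpla2.

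Per length of transcript the members differed widely in level. The highest after Acaa2 were Etfb, at a mean of 439 RPKM in KO and 346 RPKM in WT liver, Cyp4a14 at 332 RPKM in KO and 240 RPKM in WT liver, and Etfa at 329 RPKM in KO and 275 RPKM in WT liver. The lowest were Acot2, at 2.52 RPKM in KO and 2.49 RPKM in WT liver, Pdk4 at 4.92 RPKM in KO and 8.96 RPKM in WT liver, and Fgf21 at 4.98 RPKM in KO and 13.7 RPKM in WT liver. Ppara, at 29.3 RPKM in KO and 36.0 RPKM in WT liver, lay in the lower part of the list.

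In other genes of the same pathways edgeR made 0 calls with all libraries. DESeq2 without KO library 1 called Eci3, Slc16a6, Mgll, Cyp2u1 and Pnpla3 lower among the beta-oxidation, ketogenesis, target and lipase partner lists that follow (log2 fold changes -0.57 in Mgll to -1.65 in Eci3), where it called 8.61% of all genes. At an unadjusted p below 0.05 in edgeR with all libraries, 1 ketogenesis gene, 2 further targets, 3 partners, 2 lipase partners, 5 fasting and feeding genes and 2 clock genes were lower, and 1 lipase partner was higher. Of 12338 tested genes 728 were lower and 954 higher at that level, together 13.6%. Among 29 tested beta-oxidation genes outside the members 0 were called, 16 had a positive log2 fold change, 1 was higher and 2 were lower at an unadjusted p below 0.05, and the median was 0.03. Scp2, whose products include a peroxisomal thiolase for branched chains, averaged 3820.1 ± 795 CPM in KO and 2669 ± 210.0 CPM in WT liver, with every KO library above every WT library (log2 fold change 0.52, SE 0.19, edgeR adjusted p = 0.333). Abcd3, a peroxisomal membrane transporter, averaged 523 ± 40.7 CPM in KO and 693 ± 122 CPM in WT liver, with every KO library below every WT library (-0.41, SE 0.15, adjusted p = 0.336). Eci3, an enoyl-CoA isomerase gene with 0 to 8 reads in KO libraries and 14 to 26 in WT libraries, gave -1.84 on the log2 scale (SE 0.51, edgeR adjusted p = 0.293).

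Of 6 other ketogenesis genes 0 were called and 2 were positive, with a median of -0.09. The monocarboxylate transporter gene Slc16a6 averaged 4.36 ± 1.18 CPM in KO and 7.20 ± 1.42 CPM in WT liver (SD, n = 5 and 3; log2 fold change -0.74, SE 0.25, edgeR adjusted p = 0.332). The lactate and ketone transporter gene Slc16a1 averaged 97.7 ± 16.6 CPM in KO and 111 ± 10.4 CPM in WT liver. Of 32 tested further PPAR-alpha targets 0 were called and 11 were positive, with a median of -0.05. The monoglyceride lipase gene Mgll averaged 155 ± 16.4 CPM in KO and 220.3 ± 60.7 CPM in WT liver, the phosphatidate phosphatase gene Lpin1 averaged 50.7 ± 7.22 CPM in KO and 76.3 ± 33.8 CPM in WT liver, and Fitm1, of lipid droplet formation, averaged 5.55 ± 3.30 CPM in KO and 3.10 ± 1.47 CPM in WT liver.

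Among 17 receptor partners and coregulators of PPAR-alpha, edgeR called 0 with all libraries and 6 were positive, with a median of -0.06, while DESeq2 called 1, Ppard, lower. Ppard (19015), the related receptor PPAR-delta, had 13.3, 4.24, 6.79, 4.77 and 4.5 CPM in KO libraries 1 to 5, against 48.5, 66.0 and 7.41 CPM in WT libraries 1 to 3. WT libraries 1 and 2 were several times above every KO library, while WT library 3 lay among the KO values. The log2 fold change was -2.64 (SE 0.58, edgeR adjusted p = 0.194, DESeq2 adjusted p = 0.0390). In edgeR, Ppard fell by 3.14 on the log2 scale without WT library 3 (adjusted p = 0.00744) and by 3.0 without KO library 1 (adjusted p = 0.0403). WT library 3 was the lowest WT library for Ppard, so leaving it out lowers the KO over WT of this gene by construction. Ppargc1b, a coactivator, averaged 2.33 ± 0.893 CPM in KO and 4.16 ± 1.86 CPM in WT liver (log2 fold change -0.86, SE 0.38, edgeR adjusted p = 0.358), and Lpin1, given above, is counted here too. Of 9 genes that act with the lipase Pnpla2, 0 were called and 4 were positive, with a median of -0.12. Its coactivator Abhd5 averaged 45.5 ± 7.77 CPM in KO and 32.6 ± 2.33 CPM in WT liver, with every KO library above every WT library (log2 fold change 0.48, SE 0.16, edgeR adjusted p = 0.332), and its relative Pnpla3 averaged 5.15 ± 2.56 CPM in KO and 13.8 ± 4.59 CPM in WT liver (-1.41, SE 0.41, adjusted p = 0.301). Mgll, given above, is counted in this list too.

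Many of the members follow feeding and the time of day, and the genes that mark these states also differed between libraries of the same genotype. The clock output gene Dbp, chosen after its values were seen, had 7.82, 25.2, 12.4, 65.2 and 29.3 CPM in KO libraries 1 to 5, against 0.472, 0.461 and 145.5 CPM in WT libraries 1 to 3. Arntl, the clock's activator, chosen in the same way, ran opposite, with 16.8, 8.69, 12.9, 3.71 and 8.54 CPM in KO, against 39.4, 37.0 and 1.40 CPM in WT libraries. WT library 3 thus lay at the far end from WT libraries 1 and 2 for both genes, with the KO libraries between. Of 15 clock genes 0 were called with all libraries by edgeR or DESeq2 (DESeq2 without KO library 1 called Cry1 lower), 2 were positive and the median was -0.80. In edgeR without WT library 3, Dbp, Nr1d2 and Tef were called higher (log2 fold changes 5.88, 2.42 and 1.82) and Npas2 and Cry1 lower (-3.09 and -1.40). These 2 fits called 8.61% and 0.745% of all genes. WT library 3 was the highest WT library for Dbp, Nr1d2 and Tef and the lowest for Npas2 and Cry1. Leaving it out therefore moves their KO over WT in these directions by construction, and only 2 WT libraries remain. Npas2 had 4.11, 1.11, 1.89, 0.953 and 1.04 CPM in KO, against 14.5, 14.2 and 0.20 CPM in WT libraries, Cry1, a repressor of the clock, averaged 6.86 ± 0.747 CPM in KO and 14.4 ± 6.70 CPM in WT liver, and Nfil3 averaged 17.1 ± 8.22 CPM in KO and 37.6 ± 23.8 CPM in WT liver (SD, n = 5 and 3).

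Of 14 fasting and feeding genes edgeR called 0 with all libraries and 2 were positive, with a median of -0.60. DESeq2 called 1 with all libraries, Tat (adjusted p = 0.0306), and 6 without KO library 1, all lower (Tat, Sds, Srebf1, Fasn, Acaca and Pnpla3). Of all genes DESeq2 called 0.884% with all libraries and 8.61% without KO library 1. Tat, a glucocorticoid-responsive aminotransferase, had 538, 399, 450.4, 373 and 365 CPM in KO libraries 1 to 5, against 1126, 946 and 474 CPM in WT libraries 1 to 3 (log2 fold change -1.0, SE 0.26, edgeR adjusted p = 0.264). The serine dehydratase gene Sds averaged 79.5 ± 15.6 CPM in KO and 119.6 ± 7.68 CPM in WT liver (-0.59, SE 0.17, adjusted p = 0.301). The lipogenic gene Acly had 324, 169, 237, 188 and 191 CPM in KO, against 932, 561 and 163 CPM in WT libraries, and without WT library 3 Acly and Tat were called lower (log2 fold changes -1.75 and -1.29). WT libraries 1 and 2 stood high for Tat and Acly, and WT library 3 lay at the level of the KO libraries. Leaving out WT library 3 therefore lowers KO over WT of both genes by construction. The mean percent of a gene's length covered by reads, at equal read density, also divided the WT libraries, at 68.7%, 63.4%, 67.0%, 64.6% and 65.1% in KO libraries 1 to 5, against 69.9%, 69.3% and 65.2% in WT libraries 1 to 3. The part of feeding state, time of day and RNA coverage in the members' levels was not tested, and the labels give no time of sampling.

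**Figure D4:**
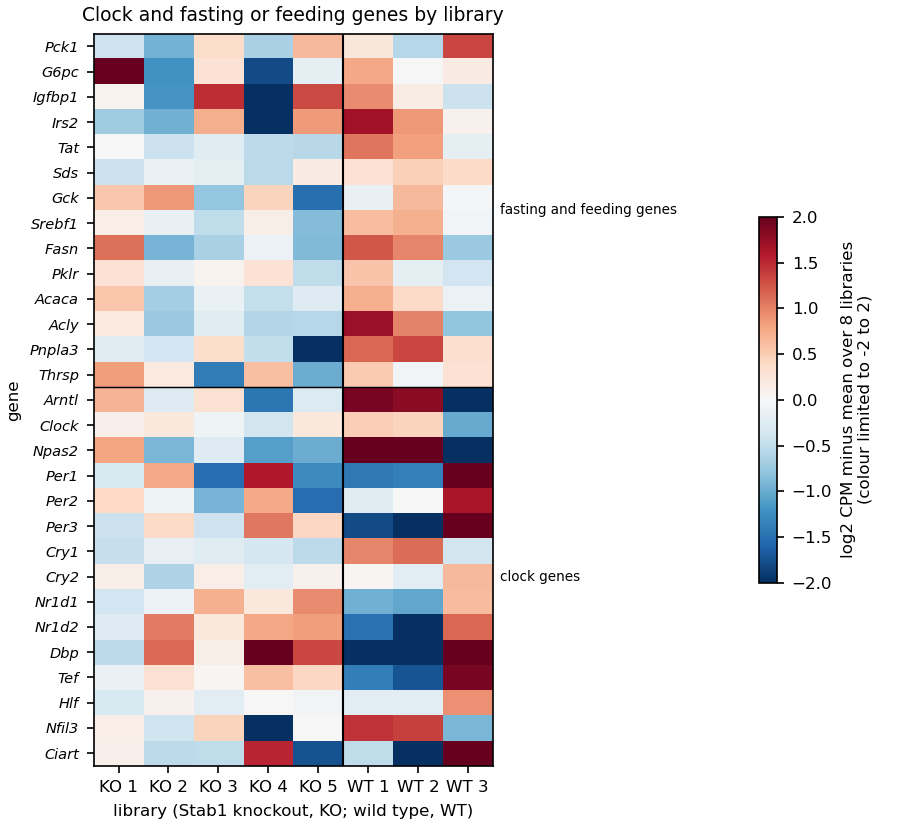
Log2 CPM of 14 fasting and feeding genes and 15 clock genes minus each gene's mean over the 8 libraries (colour, limited to -2 to 2), with KO libraries 1 to 5 left of WT libraries 1 to 3. WT libraries 1 and 2 share 1 colour pattern in the clock rows and WT library 3 has the opposite one, with Dbp at 0.472 and 0.461 CPM in the first pair and 145.5 CPM in the last.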

How the data were processed

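Messenger RNA of whole liver was sequenced in 5 KO and 3 WT libraries of 5-week-old mice, grouped and numbered as the labels have them. RNA was isolated with a column kit and libraries were made by Illumina procedures at BGI, per the labels' protocols. The aligner, counting method, genome build, annotation and strandedness were not given in the sources used here (GEO's labels and the file's headers). The authors deposited 1 gene table of 19464 rows holding, per the file headers, a uniquely mapped read count for every gene in every library. A deposited coverage column, per the file headers the percent of a gene with reads on it, was used only to compare libraries. The RPKM values that the authors deposited, which divide reads by length and library total, equalled those recomputed from the counts and served only to compare levels between genes. A dash was read as 0, and 113 gene identifiers on 229 rows were summed, which left 19348 genes, 17474 of them with a read.

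Counts were tested in R 4.3.3 with edgeR 4.0.16: filterByExpr at its defaults, TMM scaling and the quasi-likelihood F test of KO over WT on 12338 genes, with Benjamini-Hochberg adjustment over all of them and calls at an adjusted p below 0.05. A standard error (SE) is the size of the log2 fold change divided by the square root of F, and log2 CPM values have a prior count of 2. The biological coefficient of variation was 24.8%. Every pair of libraries differed by more than sampling noise (chi-square over its degrees of freedom 11.5 to 89.1). The scripts were tested on simulated counts. Alternatives were DESeq2 1.42.0, its size factors in edgeR, no filter, the replicate number as a block, a coverage covariate (the mean percent covered of genes of at least 1000 bases with 20 to 50 reads per kb), a gene length correction (lowess, span 0.3) and leaving out libraries. Stretches of 50 bases were compared between GENCODE M21 transcripts for shared sequence. Plots were made in Python 3.11.15 with matplotlib 3.10.9.

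The members and all lists were chosen with earlier results of these data known, so no list is independent evidence. Of 248 list entries 245 matched a gene, 3 of them through RefSeq synonyms. Full values are given for Ppara, members of role groups of 1 or 2, and the 2 members of smallest p in each larger group; the other members get a mean level, a log2 fold change or a range. Of each other list up to 3 genes of smallest p are named, 1 of which is not reported here. Per-library values of other members, and other genes not called under a named setting, are said to be chosen after their values were seen.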

Additional observations from a re-analysis of the deposited data

Results flagged for a closer look

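In 3 cases 1 KO library lay apart from the other 4, by a gap that took up more of the group's whole range than Dixon's 95% critical value for 5 samples; chance gives such a gap in about 1 of 20 groups. Stab1 was at 0.557 CPM in KO library 2, on 5 reads, where the nearest other KO library had 1.27 CPM (gap over range 0.749). Fgf21 was at 11.4 CPM in KO library 3, where the nearest had 4.35 CPM (gap over range 0.779). Vnn1 was at 57.1 CPM in KO library 5, where the nearest had 27.8 CPM (gap over range 0.736). Groups of 3 were not examined in this way, so WT library 3 could not be.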

How the results depend on the processing

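Of all alternatives run, only the fit without KO library 1 and WT library 3 called any member. The signs of many fold changes moved, among them large ones of Cyp4a10, Cyp4a14 and Fgf21. The member median ran from -0.27 with the coverage covariate to 0.40 without KO library 1 and WT library 3. Over all genes DESeq2 called 130, DESeq2 without KO library 1 called 1057, and leaving out 1 library, or KO library 1 with 1 other, gave 13 to 2482 genes called, 0 to 11 members called, 6 to 29 members with a positive log2 fold change and a member median of -0.18 to 0.40. The upper ends came without KO library 1 and WT library 3.

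With the replicate block 8 genes were called, 9 members were positive and the member median was -0.14. Replicate numbers 4 and 5 occur only in KO, so KO libraries 4 and 5 do not enter KO over WT in that fit. It compares only libraries 1 to 3 of each group. The log2 fold changes that turned negative under the block were Slc25a20 -0.041, Acadm -0.057, Hadh -0.14, Hsd17b4 -0.0090, Cyp4a10 -1.01, Cyp4a14 -0.76, Acot2 -0.58 and Plin2 -0.079. Same-numbered libraries correlated at 0.12, -0.15 and -0.15 in their deviations across genes, and differently numbered ones at -0.28 to 0.31. With so few libraries and so wide a range, these correlations cannot show whether same-numbered libraries were paired. The labels name no pairing, and the block was not used.

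With the coverage covariate 4 members were positive and the median was -0.27; the signs that turned were Slc25a20 -0.26, Acadm -0.28, Hadh -0.32, Decr1 -0.25, Etfa -0.016, Etfb -0.046, Acaa1a -0.083, Hsd17b4 -0.018, Decr2 -0.14, Bdh1 -0.12, Cyp4a10 -0.95, Cyp4a14 -0.59, Acot2 -0.47, Plin2 -0.24 and Pdk4 0.40. With the gene length correction they were Slc25a20 -0.052, Acadm -0.0068 and Plin2 -0.025, with no filter Hsd17b4 -0.0021, and with DESeq2 without KO library 1 Acadl 0.0099. DESeq2 with all libraries and its size factors in edgeR turned 0 of 34 signs. In edgeR with the coverage covariate, 6 members were lower and 0 higher at an unadjusted p below 0.05. Of 12338 tested genes 443 were lower and 412 higher in that fit.

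Leaving out 1 library, or KO library 1 with 1 other (added after seeing the data), the log2 fold changes that crossed 0 were -0.44 to 0.072 for Ppara, -0.49 to 0.10 for Cpt1a, -0.15 to 0.45 for Slc25a20, -0.20 to 0.23 for Acadl, -0.12 to 0.47 for Acadm, -0.020 to 0.47 for Hadh, -0.28 to 0.39 for Hadhb, -0.15 to 0.17 for Acaa2, -0.17 to 0.55 for Decr1, -0.031 to 0.83 for Acaa1a, -0.56 to 0.28 for Acaa1b, -0.44 to 0.11 for Ehhadh, -0.040 to 0.059 for Hsd17b4, -0.12 to 0.55 for Decr2, -0.60 to 0.11 for Pex11a, -0.022 to 0.52 for Bdh1, -0.26 to 1.03 for Cyp4a10, -0.95 to 0.47 for Acot1, -0.39 to 0.58 for Acot2, -2.08 to 1.46 for Fgf21, -1.94 to 0.21 for Vnn1, -0.20 to 0.59 for Plin2 and -0.25 to 0.33 for Pnpla2. The cause was not tested. Depth limits Acot1, Acot2 and Fgf21 most, with 10 to 12 reads in KO library 1.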

Other observations

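KO library 1, by its reads the only male library, also differed from the rest in PPAR-alpha targets outside the members. Cyp4a12a, a cytochrome P450 gene of male mouse liver, had 1455 reads there and 1 to 6 in each other library, and Cyp4a12b had 196 reads there and 0 or 1 in each other library; neither passed the filter on low counts. The acyl-CoA thioesterase gene Acot3 had 1 read there and 110 to 2429 in each other library. These genes were chosen after their values were seen.

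Markers of other cell types gave 0 calls with all libraries in edgeR and DESeq2. DESeq2 without KO library 1 called 4 erythroid markers (Hba-a1, Hbb-b1, Hbb-bs and Car1) and 2 adipocyte and mesothelial markers (Upk3b and Msln) higher and 2 sinusoidal endothelial markers (Kdr and Dnase1l3) lower, and edgeR without WT library 3 called Car1 higher. Over all genes these fits called 1057 of 12280 (8.61%) and 93 of 12487 (0.745%). At an unadjusted p below 0.05 in edgeR with all libraries, 5 erythroid, 2 Kupffer cell and 2 adipocyte and mesothelial markers were higher and 3 sinusoidal endothelial markers lower. At that level 954 of 12338 tested genes were higher and 728 lower, together 13.6%. Of 11 tested erythroid markers 10 had a positive log2 fold change (median 0.90), and their summed level was 191 to 634 CPM in KO and 154 to 193 CPM in WT libraries. Of 12 Kupffer cell markers 9 were positive (median 0.30), with sums of 647 to 917 CPM in KO and 546 to 732 CPM in WT libraries. Of 12 sinusoidal endothelial markers 1 was positive (median -0.23), with sums of 348 to 424 CPM in KO and 416 to 557 CPM in WT libraries, and of 15 hepatocyte markers 4 were positive (median -0.16). Of 5 tested adipocyte and mesothelial markers 4 were positive (median 0.71), and no muscle marker passed the filter. Their part in the members' levels was not tested.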
